A study of Homo sapiens with 9 samples.

Results

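The MS4A genes are a family of tetraspanning membrane protein genes that lie side by side on chromosome 11. The 6 described here, MS4A2, MS4A3, MS4A4A, MS4A6A, MS4A7 and MS4A14, are every row of 2 deposited comparisons whose gene symbol is on a fixed list of MS4A names, 6 of 59563 named genes. The cells were MOLM13, an established human acute myeloid leukaemia line of monoblastic type with a KMT2A fusion and an activating FLT3 duplication. They were kept for 72 h in the solvent DMSO alone, in 1 µM iberdomide (CC-220) or in 50 nM mezigdomide (CC-92480), with 3 libraries of poly(A) RNA in each of the 3 groups. Both agents are glutarimide-based ligands of cereblon, the substrate receptor of a ubiquitin ligase, and direct it to the transcription factors IKZF1 and IKZF3. The controls carry the solvent and the same leukaemia lesions, and all groups come from 1 cell line. Whether replicate libraries stem from different cultures is not in the labels, so each p-value speaks to library-to-library spread that may be technical.

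MS4A proteins cross the membrane repeatedly and sit in complexes with other receptors. MS4A2 is the beta chain of the high-affinity IgE receptor of mast cells and basophils, and MS4A3 marks granulocyte-monocyte progenitors and their early progeny. MS4A4A, MS4A6A and MS4A7 are best known from monocytes and macrophages, where MS4A4A and MS4A6A have been tied to the release of soluble TREM2. The best known relative, MS4A1, encodes the B cell antigen CD20.

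The deposited tables hold no value for single libraries. Each gives, for every gene, the mean of the normalised counts over all 9 libraries, the log2 fold change over DMSO, its standard error (SE) and an adjusted p-value from DESeq2's Wald test. Counts assigned to genes, recovered from genes with 1 read in 1 library, came to about 20900000 to 25300000 per library. Reads not assigned to a gene are not in this number. In bulk RNA of this kind, more cells that express a gene and more RNA per cell cannot be told apart. The line's own markers were present: 9 of 10 monoblast and progenitor genes had reads, and CD34 was listed at 0. Of 12 B cell markers, 11 had means under 10 normalised counts in the authors' deposited table.

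All 6 members lie within 361 kb of GRCh38, at chr11:60056587-60071128 (MS4A3), chr11:60088261-60098466 (MS4A2), chr11:60172014-60184666 (MS4A6A, minus strand), chr11:60185702-60317944 (MS4A4A), chr11:60378482-60395951 (MS4A7) and chr11:60378530-60417756 (MS4A14). The gene body of MS4A4A in GENCODE release 29 spans that of MS4A4E, a close copy on the opposite strand that is not among the 6. MS4A7 and MS4A14 share their first stretch on the plus strand, but only 3.10% of the exon bases of MS4A7 and 4.24% of those of MS4A14 overlap another gene. Of the 37-base windows of MS4A4A transcripts, 1.25% also occur in transcripts of other genes. The shares were 2.31% in MS4A6A, 2.39% in MS4A14, 2.43% in MS4A2 and 4.81% in MS4A7, and no window of MS4A3 was shared. No exon bases of the 6 overlap a gene on the opposite strand.

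The RefSeq promoter windows (GRCh38.p14, 250 bases before to 50 after the annotated start, 5′ to 3′) of 4 genes are shown: those of MS4A3 and its neighbour MS4A2, the members with the highest and the lowest level, and those of MS4A4A and its copy MS4A4E, whose fold changes are compared among the results. Capitals mark GGGAA, the core of the Ikaros binding site, or its reverse complement TTCCC. The windows are chr11:60056415-60056714 for MS4A3, chr11:60088414-60088713 for MS4A2, chr11:60280416-60280715 for MS4A4A, all on the plus strand, and chr11:60243088-60243387 on the minus strand for MS4A4E.
MS4A3: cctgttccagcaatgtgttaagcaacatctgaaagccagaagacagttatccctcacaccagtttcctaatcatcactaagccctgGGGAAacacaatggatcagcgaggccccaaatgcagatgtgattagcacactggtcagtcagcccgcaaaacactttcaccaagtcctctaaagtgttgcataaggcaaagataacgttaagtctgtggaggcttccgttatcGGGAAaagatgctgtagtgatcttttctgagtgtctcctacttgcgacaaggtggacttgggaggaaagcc
MS4A2: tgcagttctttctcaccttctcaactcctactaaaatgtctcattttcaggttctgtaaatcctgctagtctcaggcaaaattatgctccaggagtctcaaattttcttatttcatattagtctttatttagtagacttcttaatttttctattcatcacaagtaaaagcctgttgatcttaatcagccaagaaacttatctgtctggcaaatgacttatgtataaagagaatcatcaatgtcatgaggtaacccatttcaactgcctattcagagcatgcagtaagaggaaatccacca
MS4A4A: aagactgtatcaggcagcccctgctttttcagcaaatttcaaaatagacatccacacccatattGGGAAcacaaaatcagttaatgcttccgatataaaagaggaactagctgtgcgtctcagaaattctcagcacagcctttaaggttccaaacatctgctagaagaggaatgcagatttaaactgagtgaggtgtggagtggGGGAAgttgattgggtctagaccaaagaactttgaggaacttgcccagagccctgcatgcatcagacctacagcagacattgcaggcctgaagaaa
MS4A4E: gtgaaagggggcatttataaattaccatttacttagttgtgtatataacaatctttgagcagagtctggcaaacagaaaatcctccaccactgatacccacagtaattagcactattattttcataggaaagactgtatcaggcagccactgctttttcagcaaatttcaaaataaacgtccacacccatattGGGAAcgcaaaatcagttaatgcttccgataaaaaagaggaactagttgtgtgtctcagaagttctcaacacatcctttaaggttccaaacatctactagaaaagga
The windows of MS4A4A and MS4A4E overlap after a shift of 129 bases, and 159 of the 171 bases then in common are identical (93.0%). One copy of GGGAA lies in this shared stretch of both genes, and MS4A4A has a second copy downstream of it. The window of MS4A3 holds 2 copies and that of MS4A2 none. All 6 members were in the RefSeq table, MS4A6A with 4 windows, and 6 of their 9 windows (66.7%) held GGGAA on either strand, against 65.0% of 35116 windows of all genes. A match is only a match of letters, and its share among the members was close to that of all windows.

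MS4A3 was the most abundant member. Splitting its deposited mean by the 2 deposited fold changes gives group levels of 3788 normalised counts in DMSO, 6987 with iberdomide and 7689 with mezigdomide. By the authors' deposited table it rose 1.84-fold with iberdomide (log2 0.88, SE 0.10, DESeq2 Wald test, adjusted p = 2.19e-15) and 2.03-fold with mezigdomide (log2 1.02, SE 0.10, adjusted p = 1.1e-20). MS4A3 encodes the protein HTm4, which binds the cyclin-dependent kinase-associated phosphatase CDKN3 and has been linked to the shared beta chain of cytokine receptors, CSF2RB.

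MS4A6A stood at 1318 normalised counts in DMSO, 2244 with iberdomide and 2673 with mezigdomide. In the authors' deposited table its log2 fold changes were 0.77 (SE 0.10, DESeq2 Wald test, adjusted p = 2e-12) and 1.02 (SE 0.10, adjusted p = 4.83e-22). MS4A7, a gene of mature monocytes and macrophages, stood at 1237, 2034 and 2099.9 normalised counts in the same order. The authors' deposited table puts it at log2 fold changes of 0.72 (SE 0.086, DESeq2 Wald test, adjusted p = 4.7e-15) and 0.76 (SE 0.086, adjusted p = 3.27e-17). Both genes thus rose with either agent.

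MS4A4A, a macrophage gene whose protein associates with the beta-glucan receptor dectin-1, had the largest fold changes of the 6 from a low level. It stood at 86.9 normalised counts in DMSO, 168 with iberdomide and 186 with mezigdomide. In the authors' deposited table it rose by log2 0.95 (SE 0.14, DESeq2 Wald test, adjusted p = 4.93e-10) and 1.09 (SE 0.14, adjusted p = 1.4e-13). MS4A14 stood at 129, 199.8 and 241 normalised counts in DMSO, iberdomide and mezigdomide. By the authors' deposited table it rose by log2 0.64 (SE 0.18, DESeq2 Wald test, adjusted p = 0.00479) and 0.91 (SE 0.18, adjusted p = 7e-06).

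MS4A2 did not pass the threshold with either agent. It had 13.1 normalised counts in DMSO, 20.1 with iberdomide and 19.0 with mezigdomide, about 157 normalised counts over the 9 libraries. In the authors' deposited table, its log2 fold changes were 0.62 (SE 0.23, DESeq2 Wald test, adjusted p = 0.0529) and 0.54 (SE 0.23, adjusted p = 0.0833). Their 95% intervals, 0.16 to 1.07 and 0.084 to 0.99, overlapped those of MS4A3, and no difference between the 2 genes was tested. The iberdomide value lies just outside the threshold and passed it under 3 of 5 alternative treatments of the table (adjusted p from 0.0388 to 0.0952), while the mezigdomide value passed under none of 5 (0.06 to 0.141). The deposited fold changes are shrunk towards 0, which acts most on genes with as few reads as this one.

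**Figure D1:**
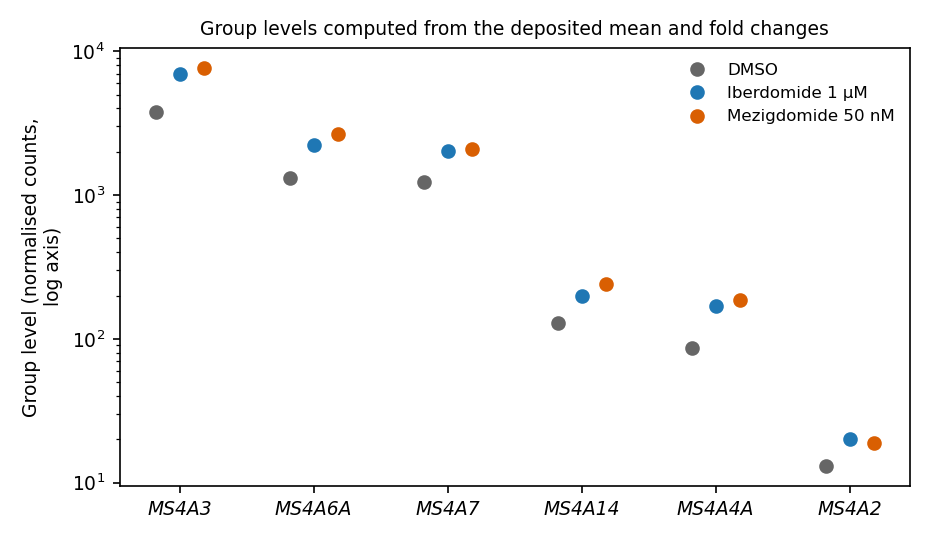
Group level of each of the 6 members (normalised counts, log axis) in DMSO, iberdomide and mezigdomide, computed from the deposited mean over all libraries and the 2 deposited fold changes; single libraries and their error are not shown. In all 6 genes both treated levels lie above DMSO, from 13.1 against 20.1 and 19.0 in MS4A2 to 3788 against 6987 and 7689 in MS4A3.

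Between genes, levels can be set side by side only per length. Per kilobase of annotated exon, the DMSO levels were 1808 normalised counts for MS4A3, 284 for MS4A7, 228 for MS4A6A, 32.1 for MS4A14, 29.5 for MS4A4A and 2.95 for MS4A2. Per kilobase of the longest transcript MS4A6A (545) came before MS4A7 (431) and MS4A4A (51.8) before MS4A14 (37.8), so the order within these pairs depends on the length used. MS4A3 came first and MS4A2 last either way.

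In all, 5 of 6 members rose with iberdomide and none fell, where 14.1% of the 19497 genes tested were called in either direction and 7.3% higher. The same 5 of 6 rose with mezigdomide, where 21.2% of 20819 genes were called in either direction and 10.4% higher. The members were listed with results of these data known, so these counts describe them and do not test the family. The median log2 fold change over the 6 was 0.74 with iberdomide and 0.96 with mezigdomide, and that of all genes tested was -0.0095 and -0.007. The rises of the 5 called genes ran from 1.55-fold (MS4A14) to 1.93-fold (MS4A4A) with iberdomide. With mezigdomide they ran from 1.70-fold (MS4A7) to 2.14-fold (MS4A4A). The 95% intervals overlapped in all 10 pairs of these 5 genes under each agent, which does not test whether the rises are alike. Among all genes, 1.6% of those tested had a log2 fold change at least as high as MS4A4A with iberdomide and 1.69% with mezigdomide. The corresponding shares were 1.83% and 1.91% for MS4A3, and 3.07% and 2.31% for MS4A14.

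**Figure D2:**
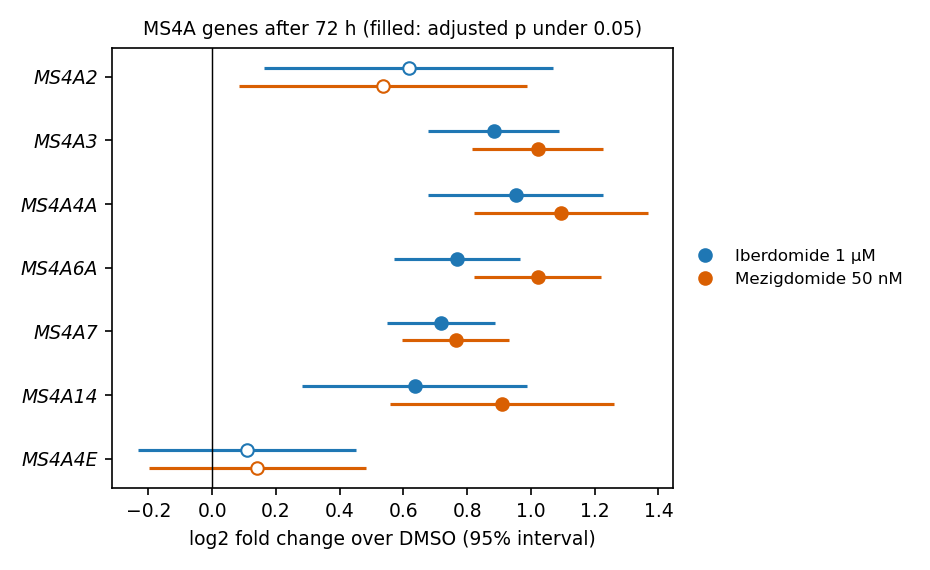
Deposited log2 fold changes over DMSO (points) with 95% intervals (lines) for the 6 members and MS4A4E; filled points passed an adjusted p of 0.05. Filled points run from 0.64 to 0.95 with iberdomide and from 0.76 to 1.09 with mezigdomide, and the intervals of MS4A4E span 0.

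**Figure D3:**
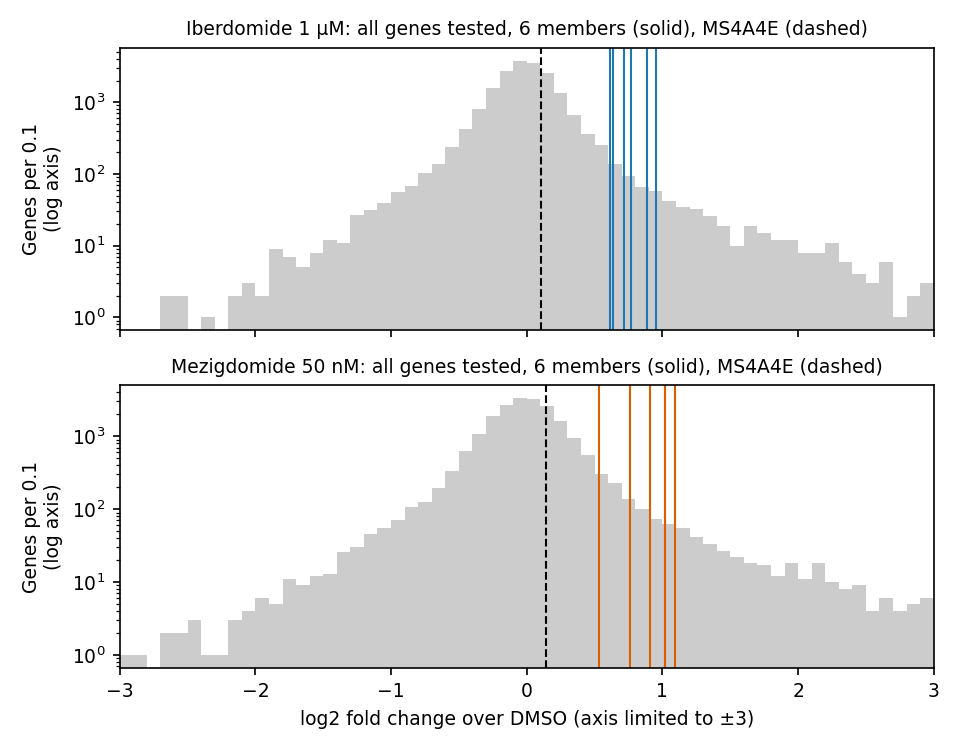
Histograms of the deposited log2 fold changes of all genes tested with each agent (genes per bin of 0.1, log axis), with the members as solid lines and MS4A4E as a dashed line. The members sit on the right shoulder of both histograms, between 0.62 and 0.95 and between 0.54 and 1.09, and genes lie beyond them on both sides; the axis is limited to ±3.

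Whether the members responded differently to the 2 treatments was asked by the difference of the log2 fold changes. The doses were 1 µM and 50 nM, so this compares the treatments as given and not the compounds at a matched dose, and both comparisons share the DMSO libraries. Mezigdomide gave the higher value in 5 of 6 members, and 0 of 6 differences passed (normal test with independent errors, 0 at an unadjusted p under 0.05), where 0.108% of 19497 genes did. With an error correlation of 0.5, as shared controls would give, 0 passed as well and 1 had an unadjusted p under 0.05. That gene was MS4A6A, with a difference of 0.25 (SE 0.10 with that correlation, normal test, unadjusted p = 0.0127, adjusted p = 0.605). With independent errors its SE was 0.14 and its 95% interval -0.028 to 0.53. The interval was -0.15 to 0.43 for MS4A3, -0.19 to 0.28 for MS4A7, -0.24 to 0.53 for MS4A4A, -0.23 to 0.77 for MS4A14 and -0.72 to 0.56 for MS4A2. All these intervals use independent errors, an upper limit where controls are shared. Differences inside them were not resolved with those errors.

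The other MS4A genes were at or near 0 or did not pass. MS4A5, MS4A6E, MS4A8, MS4A12, MS4A13 and MS4A18 were listed at 0 in every library, which allows up to 3 reads over all 9 libraries, a mean of 0.333 normalised counts, counting error only. MS4A1, MS4A10 and MS4A15 had means of 0.242, 0.11 and 0.105 in the authors' deposited table. MS4A4E stood at 130 normalised counts in DMSO, 140 with iberdomide and 144 with mezigdomide. In the authors' deposited table, neither of its log2 fold changes passed, 0.11 (SE 0.17, DESeq2 Wald test, adjusted p = 0.816) and 0.14 (SE 0.17, adjusted p = 0.664). Its 95% intervals, -0.23 to 0.45 and -0.2 to 0.48, did not overlap those of MS4A4A, 0.68 to 1.23 and 0.82 to 1.37. The promoter windows of the 2 genes lie apart on opposite strands and are 93.0% identical over the 171 bases compared above. The window of MS4A4A lies inside its GENCODE gene body, and which start is used in these cells was not tested. This pair was singled out after its values were seen, and 14.4% of the windows of MS4A4E transcripts also occur in other genes. The more distant relatives TMEM176A and TMEM176B, with deposited means of 3.61 and 10.2 normalised counts by the authors' deposited table, did not pass either.

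Along the chromosome, the 5 rising genes lie among MS4A2 and MS4A4E, which did not pass. The tested genes next to the cluster on the left, OOSP1 and TCN1, did not pass either. Their means were only 7.48 and 10.3 normalised counts in the authors' deposited table, where a rise like that of the MS4A genes may go uncalled. Inside the cluster, LINC02705 and MIR6503 did not pass, at means of 2.98 and 3.83 in the authors' deposited table. Within 500 kb of the outermost MS4A genes, 51 other genes are annotated and measured, of which 23 were tested with iberdomide and 25 with mezigdomide. Of these, 2 rose and 4 fell with iberdomide, and 3 rose and 4 fell with mezigdomide. Among all genes tested, 7.3% and 10.4% were called higher and 6.77% and 10.7% lower. STX3, a vesicle fusion syntaxin that ends at -251 kb from the start of MS4A3, fell by 0.60 and 0.95 on the log2 scale in the authors' deposited table. On the right, from 785 kb on, CCDC86, PTGDR2 and TMEM109 fell, CCDC86 with 17.2% of its exon bases shared with a gene on the other strand, and TMEM132A (1.70 and 2.18) and the lymphocyte receptor gene CD6 (0.80 and 1.14) rose with both agents in the authors' deposited table, from means of 29.5 and 17.4 normalised counts. SLC15A3, a lysosomal peptide transporter, was at 0.15 with iberdomide and rose by log2 0.61 with mezigdomide in the authors' deposited table. OSBP, PATL1, MRPL16, PRPF19 and VPS37C passed with neither agent, at means in the authors' deposited table from 1065 (VPS37C) to 5825 (PRPF19) normalised counts, a range that also holds TMEM109.

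**Figure D4:**
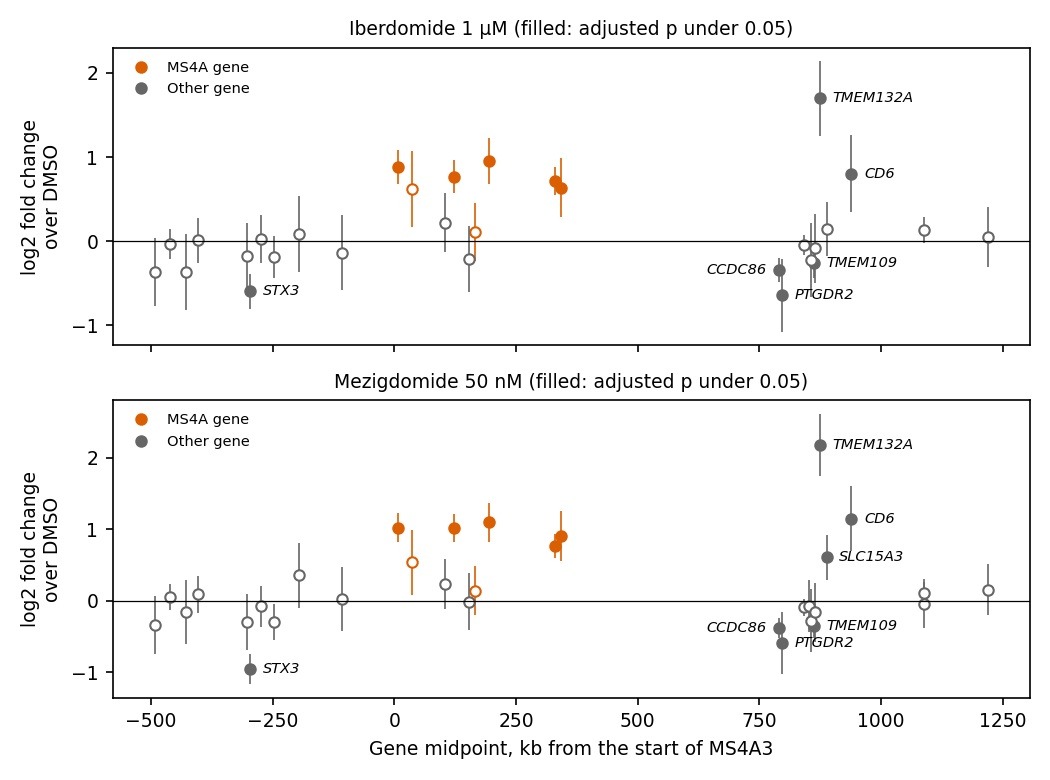
Deposited log2 fold changes (points) with 95% intervals (lines) of all tested genes around the cluster, by distance of the gene midpoint from the start of MS4A3 in kb, for each agent; filled points passed an adjusted p of 0.05. The filled MS4A genes lie between 0 and 361 kb, and TMEM132A, at 1.70 and 2.18, is the highest point in both panels.

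MS4A2 works in the IgE receptor with the ligand-binding alpha chain FCER1A and the signalling gamma chain FCER1G. By the authors' deposited table FCER1A averaged 2.27 normalised counts, and it was not tested with iberdomide. By the authors' deposited table FCER1G, which also serves other Fc receptors, rose by log2 0.51 (SE 0.17, DESeq2 Wald test, adjusted p = 0.0254) and 0.92 (SE 0.17, adjusted p = 8.98e-07). Of 16 genes of the receptor and its signalling, 2 rose and 3 fell with either agent. With iberdomide 15 were tested and with mezigdomide 16, where 7.3% and 10.4% of all genes were called higher and 6.77% and 10.7% lower. The Src kinase LYN, which phosphorylates the receptor's chains, rose by 0.21 and 0.31, and the adaptors LAT (-0.45 and -0.48), LAT2 (-0.17 and -0.24) and LCP2 (-0.48 and -0.53) fell in the authors' deposited table. The median over the list was 0.032 and 0.045.

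Markers of mast cells and basophils went down beside the rising MS4A genes. Of 16 such genes, 7 of the 11 tested fell with iberdomide and none rose, where 6.77% of all genes were called lower. With mezigdomide 8 of the 13 tested fell, where 10.7% of all genes were called lower, and 1, KIT, rose. In the authors' deposited table KIT stood at 0.35 with iberdomide, which did not pass, and at 0.97 with mezigdomide. The list was chosen with earlier results of these data known, so its counts describe it and test nothing. The Charcot-Leyden crystal gene CLC (-1.86 and -2.41), the tryptases TPSB2 (-1.51 and -1.63), TPSD1 (-0.94 and -1.17) and TPSAB1 (-1.11 and -1.09), the histidine decarboxylase HDC (-0.93 and -1.15) and the transcription factor GATA2 (-1.19 and -1.48) fell in the authors' deposited table. Tryptase genes are near-identical copies whose reads may not be separable. Of the list, 9 genes had means under 10 normalised counts, HPGDS was listed at 0, and the summed level went from 5888 normalised counts in DMSO, 5352 of them GATA2, to 2721 and 2289. Whether these markers bear on MS4A2 was not tested.

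MS4A3 is a gene of granulocyte-monocyte progenitors, and 20 genes of that stage divided. With iberdomide 7 of the 19 tested rose and 2 fell, and with mezigdomide 6 rose and 4 fell, with medians of 0.029 and 0.074. Among all genes tested, 7.3% and 10.4% were called higher and 6.77% and 10.7% lower. Myeloperoxidase MPO (0.91 and 1.11) and the monocytic transcription factors KLF4 (1.05 and 1.05) and IRF8 (0.53 and 0.58) rose in the authors' deposited table. PLAC8 (0.52 and 0.55) and the receptor CSF3R (0.42 and 0.45) rose there as well. CEBPE, a factor of late granulocyte maturation, fell (-1.81 and -1.88), and so did CEBPB (-0.42 and -0.38), in the authors' deposited table. AZU1 (-0.06 and -0.31), at a mean of 37632 normalised counts, and PRSS57 (-0.20 and -0.38) passed as lower with mezigdomide only, in the authors' deposited table. PRTN3, with the highest mean of the list, did not pass (-0.033 and -0.15). The summed level of the list was 245837 normalised counts in DMSO, 255255 with iberdomide and 241152 with mezigdomide. Of the genes tied to the MS4A3 protein, CDKN3 fell by 0.34 and 0.44 on the log2 scale in the authors' deposited table, where CSF2RB stood at -0.069 (DESeq2 Wald test, adjusted p = 0.817) and 0.05 (adjusted p = 0.834). In that list of 8, 6 genes were tested with either agent, of which 2 fell with iberdomide, 4 with mezigdomide and none rose. IL5RA fell by the most (-0.97 and -1.08) in the authors' deposited table, at a mean of only 9.29 normalised counts. In all, 3 of the 8 had means under 10. The cyclins CCNE1 (-0.14 and -0.35) and CCNA2 (-0.14 and -0.24) passed as lower with mezigdomide only, in the authors' deposited table.

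The macrophage list held the genes nearest to MS4A4A and MS4A6A in function, and several of them rose by more than any MS4A gene. Of 20 genes 13 were tested, 8 rose with iberdomide and 9 with mezigdomide, and none fell, with medians of 1.23 and 1.07. The shares of all genes called higher were 7.3% and 10.4%. This list too was chosen with earlier results of these data known. TREM2 (4.31 and 4.39), SIGLEC1 (3.87 and 4.82) and VSIG4 (2.58 and 3.84) had the largest rises in the authors' deposited table, and CD14 (1.79 and 1.49), CSF1R (1.34 and 1.54), MARCO (1.23 and 1.61) and APOE (1.25 and 0.69) rose as well. TYROBP, the signalling partner of TREM2, did not pass (0.10 and 0.12), and the mature tissue macrophage genes CD163, C1QA, C1QB, C1QC and LYVE1 had means under 1 normalised count in the authors' deposited table. CLEC7A, which encodes dectin-1, averaged 1.84 by the authors' deposited table.

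**Figure D5:**
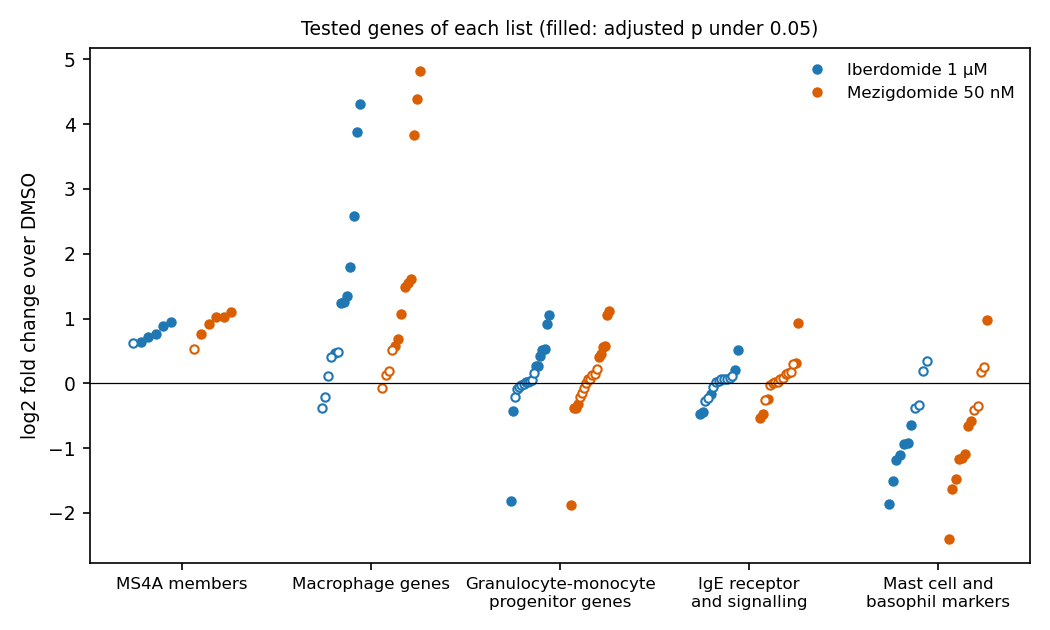
Deposited log2 fold changes over DMSO of the tested genes in 5 lists, 1 point per gene, in blue for iberdomide and orange for mezigdomide; filled points passed an adjusted p of 0.05. The MS4A members lie between 0.54 and 1.09, macrophage genes reach 4.82 and mast cell and basophil markers reach -2.41.

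The genes whose pair of fold changes came closest to each rising member were sought among 10919 genes averaging 100 normalised counts or more, by Euclidean distance over the 2 comparisons, which share their controls. They were DYRK2, TRHDE and GLIPR1 for MS4A3 (distances 0.031 to 0.048), SLC9A7, NLRP1 and VIT for MS4A4A (0.015 to 0.023) and DGKH, MAPK13 and PRICKLE4 for MS4A6A (0.015 to 0.037). For MS4A7 they were GCA, CLHC1 and BAIAP2-DT (0.027 to 0.032), and for MS4A14 KLC4, GANC and C1RL (0.035 to 0.046). These distances are smaller than the standard errors of the members' own fold changes, 0.086 (MS4A7) to 0.18 (MS4A14). Which genes lie nearest is thus not resolved.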

How the data were processed

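Poly(A) RNA of 9 MOLM13 libraries was sequenced with 37-base paired reads, per the labels' protocols. Per the submitters' processing notes the tools were DESeq2, the counter HTSeq 0.6.1pl, the aligner STAR 2.7.5a and, for files, SAMtools 1.95, Picard 2.9.4 and bcl2fastq 2.20.0.422, with build GRCh38. Which annotation release was counted is not given in the sources used here, and the kit is not stated to keep strand. Per the file headers, the authors deposited for each gene a mean signal (counts over size factors), a log2 fold change with its standard error, a Wald score and raw and adjusted p-values. The 2 deposited tables hold identical means, so each fit used all 9 libraries. Genes with 1 read had absolute fold changes of at most 0.0132, so the log2 values are shrunk. Group levels computed from them carry no error of single libraries.

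Left out were 44 second copies on chromosome Y and 92 rows that name no gene (3.39e-05% of counts). Genes were called at a deposited adjusted p under 0.05. Computed here (Python 3.11.15, SciPy 1.17.1) were the difference between drugs, checked on simulated data, group levels for 3 libraries each, exon overlaps and shared windows (GENCODE release 29) and promoter matches. Named were the members, their family and neighbours, up to 6 called genes per list by size, and the 3 nearest patterns; list genes named beyond this were chosen after their values were seen. Members and lists were chosen with earlier results of these data known. Alternatives changed the filter on low means, the threshold, the centring, the genes adjusted over and the error correlation.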

Additional observations from a re-analysis of the deposited data

How the results depend on the processing

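Across the 6 alternatives to each comparison with DMSO (no filter on low means, means of at least 10 or 50, centring, protein-coding genes only and a threshold of 0.01), MS4A3, MS4A4A, MS4A6A, MS4A7 and MS4A14 kept their direction and stayed past the threshold. MS4A2 passed with iberdomide at a mean of at least 10 (adjusted p = 0.044), after centring (0.0489) and over protein-coding genes (0.0388), each by the Wald test with Benjamini-Hochberg adjustment, and it drops out at a mean of at least 50. Between the drugs 21 genes were called with independent errors and 118 with an error correlation of 0.5, no member under either. The mast cell and basophil genes called lower numbered 7 with iberdomide and 8 with mezigdomide. At a mean of at least 50 they were 3 with either drug, since most lie under it, and at 10 they were 5 with either drug. With iberdomide, 2 and not 4 neighbours were lower without a filter or at 0.01, 1 and not 2 progenitor genes were lower under the same settings, 1 and not 2 genes tied to MS4A3 were lower at means of 10 or 50 or at 0.01, and 1 IgE receptor gene rose and 1 fell at 0.01, against 2 and 3. At a mean of at least 50, 0 neighbours rose with iberdomide and 1 with mezigdomide, against 2 and 3, and 1 T and NK cell gene rose and 0 fell with either drug, against 2 and 1. With the fold changes at the ends of their 95% intervals, the DMSO levels moved by factors from 0.784 to 1.25, both in MS4A2. No paired analysis was possible because no value per library was used. For the same reason leaving out each replicate and another tool or normalization were not run, so a member whose rise rests on 1 library could not be seen. MS4A2 and most mast cell markers rest on few reads.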

Other observations

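Of 12 markers of T and NK cells, 6 were tested, and with either drug 2 rose and 1 fell. The shares of all genes were 7.3% and 10.4% called higher and 6.77% and 10.7% lower with iberdomide and mezigdomide. GNLY, which encodes the cytolytic protein granulysin, rose by log2 2.28 (SE 0.17) with iberdomide and 2.71 (SE 0.17) with mezigdomide in the authors' deposited table, at a mean of 124 normalised counts. CD6, which lies right of the MS4A cluster, also rose, and CD3D fell by 0.85 and 1.25 on the log2 scale in the authors' deposited table. NKG7, NCAM1 and TRAC, with higher means of 1063, 718 and 409 normalised counts in the authors' deposited table, passed with neither drug. CD2 was listed at 0, and CD3E, CD3G, CD5, CD7 and KLRD1 had means under 2 normalised counts in the authors' deposited table. None of the B cell markers passed with either drug (DESeq2's Wald test, 0 of 5 tested at an unadjusted p under 0.05 with iberdomide). Of the monoblast and progenitor markers 4 rose and 1, ITGAX, fell with iberdomide and 5 rose with mezigdomide, LYZ (1.39 and 1.51) among them in the authors' deposited table, and FLT3 (-0.028 and 0.085), HOXA9 (-0.083 and -0.15) and MEIS1 (-0.084 and -0.055) did not pass.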
